A study of Homo sapiens with 54 samples.

Results

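The clustered protocadherins are 53 of the 19970 protein-coding genes of chromosomes 1 to 22 and X in the RefSeq table of GRCh38.p14. They were chosen by symbol and chromosome, as the genes of chromosome 5 named PCDHA, PCDHB or PCDHG with a number or a C-type suffix. This choice was made with earlier results of these data known. The alpha cluster held 15 members over chr5:140786140-141012347, the beta cluster 16 over chr5:141051374-141249365 and the gamma cluster 22 over chr5:141330514-141512975. Chromatin accessibility had been measured by ATAC-seq, in which a transposase cuts open chromatin and inserts sequencing adapters, in 2 established human cancer lines. MDA-MB-231 is a breast cancer line of mesenchymal character and PC3 is a prostate cancer line. Each line was left untreated (control) or exposed to the DNA-crosslinking platinum drug cisplatin, and surviving cells were taken 1 day or 10 days after its removal. The 6 groups had 3 biological replicates each and 1 peak list per replicate, 18 lists in all. Untreated cells of the same line are the controls throughout, each group comes from 1 cell line, and no dose is given in the sources used here. The labels call the replicates biological without naming separate cultures, so p-values measure the spread between these lists.

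Clustered protocadherins are cell surface adhesion proteins of the cadherin superfamily, best known from neurons. Each neuron uses a small set of them, chosen at a separate promoter for each variable first exon, and neurons that carry the same set recognise each other through binding of like to like. In the alpha and gamma clusters the variable exons are spliced to constant exons that encode a shared cytoplasmic tail, while beta genes are not spliced to such exons. The C-type members at the end of the alpha and gamma clusters are known to be used more uniformly than the others. Promoter choice depends on the insulator protein CTCF and on cohesin, which link a chosen promoter to distant enhancers, and unused promoters are commonly methylated.

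The starts of 6 gamma genes carried peaks in MDA-MB-231 lists, and the promoters of 5 of them, all but PCDHGC5, are shown beside that of PCDHGA3, a gene among them without a peak. Sequences are from RefSeq (GRCh38.p14, plus strand), 250 bases before to 50 bases after each start. Capitals mark bases that lay inside a peak in every MDA-MB-231 list with a peak in the window, which was all 9 lists for PCDHGA1, PCDHGB1, PCDHGB2 and PCDHGC3 and 8 lists for PCDHGA2.
PCDHGA1: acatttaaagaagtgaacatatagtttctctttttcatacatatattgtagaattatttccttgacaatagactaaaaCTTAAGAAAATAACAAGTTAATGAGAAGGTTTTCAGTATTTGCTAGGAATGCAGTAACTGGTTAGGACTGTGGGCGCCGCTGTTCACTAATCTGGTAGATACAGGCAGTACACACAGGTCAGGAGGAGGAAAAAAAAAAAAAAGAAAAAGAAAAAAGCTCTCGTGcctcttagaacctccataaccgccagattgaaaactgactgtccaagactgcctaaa
PCDHGA2: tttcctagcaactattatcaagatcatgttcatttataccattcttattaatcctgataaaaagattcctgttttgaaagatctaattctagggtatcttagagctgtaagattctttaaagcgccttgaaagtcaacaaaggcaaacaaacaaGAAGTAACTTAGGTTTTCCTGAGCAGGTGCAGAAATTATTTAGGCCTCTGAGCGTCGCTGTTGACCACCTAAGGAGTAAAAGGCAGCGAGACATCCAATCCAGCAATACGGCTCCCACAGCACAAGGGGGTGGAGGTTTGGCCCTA
PCDHGA3: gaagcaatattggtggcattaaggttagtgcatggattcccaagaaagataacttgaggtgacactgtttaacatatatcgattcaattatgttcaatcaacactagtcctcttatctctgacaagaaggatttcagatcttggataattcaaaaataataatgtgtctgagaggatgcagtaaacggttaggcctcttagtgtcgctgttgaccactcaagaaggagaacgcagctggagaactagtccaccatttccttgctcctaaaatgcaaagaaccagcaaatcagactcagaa
PCDHGB1: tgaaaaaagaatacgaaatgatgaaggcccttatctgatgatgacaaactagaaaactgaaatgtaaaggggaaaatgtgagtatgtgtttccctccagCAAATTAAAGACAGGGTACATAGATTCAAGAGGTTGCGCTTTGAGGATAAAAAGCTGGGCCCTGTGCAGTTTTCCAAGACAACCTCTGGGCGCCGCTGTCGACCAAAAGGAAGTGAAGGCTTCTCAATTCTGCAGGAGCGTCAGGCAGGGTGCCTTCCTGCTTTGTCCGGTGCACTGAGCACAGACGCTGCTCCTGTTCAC
PCDHGB2: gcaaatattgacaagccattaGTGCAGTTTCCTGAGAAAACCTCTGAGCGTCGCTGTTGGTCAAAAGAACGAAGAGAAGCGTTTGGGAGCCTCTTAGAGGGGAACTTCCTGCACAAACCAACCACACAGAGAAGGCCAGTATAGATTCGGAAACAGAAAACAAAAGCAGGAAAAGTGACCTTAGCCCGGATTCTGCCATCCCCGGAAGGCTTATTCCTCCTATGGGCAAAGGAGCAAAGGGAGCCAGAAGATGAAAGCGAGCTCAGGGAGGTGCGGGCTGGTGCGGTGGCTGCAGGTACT
PCDHGC3: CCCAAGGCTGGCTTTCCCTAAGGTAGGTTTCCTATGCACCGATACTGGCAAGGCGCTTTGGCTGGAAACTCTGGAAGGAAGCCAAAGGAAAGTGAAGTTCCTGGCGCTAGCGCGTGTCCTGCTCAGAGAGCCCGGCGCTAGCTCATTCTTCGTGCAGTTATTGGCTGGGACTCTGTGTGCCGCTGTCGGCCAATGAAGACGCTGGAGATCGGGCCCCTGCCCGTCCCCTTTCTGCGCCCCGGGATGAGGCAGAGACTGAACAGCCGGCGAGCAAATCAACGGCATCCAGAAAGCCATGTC
The 6 windows are chr5:141330264-141330563, chr5:141338510-141338809, chr5:141343579-141343878, chr5:141349849-141350148, chr5:141359886-141360185 and chr5:141475716-141476015, in the same order. Peaks covered 300 bases of the PCDHGC3 window, 279 of PCDHGB2, 201 of PCDHGB1, 165 of PCDHGA1 and 146 of PCDHGA2.

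The promoter table matched 47 of the 53 members. PCDHA3, PCDHA13, PCDHB6, PCDHB11, PCDHGA12 and PCDHGC5 were not matched, and their starts were taken from the lower end of the gene. All 6 printed sequences held the letters CGCTGT on the plus strand. In the 5 shown promoters with a peak the letters lay inside the peak, and their first base was at -95 from the start in PCDHGA1, -41 in PCDHGA2, -58 in PCDHGB1, -199 in PCDHGB2 and -70 in PCDHGC3. The PCDHGB2 start used is chr5:141360136, from the promoter table, while its gene entry begins further upstream, at chr5:141359994. In PCDHGA3, which had no peak, the letters stood at -46. This motif was chosen after the promoters had been read, was searched on both strands, and contains the shorter motif CGCT. It was found in 17 of 20 gamma promoters, 7 of 13 alpha promoters and 1 of 14 beta promoters, against 11.2% of all 35116 promoters in the table. CGCT alone was in 46 of the 47 member promoters and in 70.0% of all promoters. A partial consensus of the CTCF binding site was in 1 of 47 (PCDHB9) and in 2.41% of all promoters. The median GC content was 47.3% in the 5 gamma promoters with an MDA-MB-231 peak and 41.0% in the 15 without one, against 58.7% over all promoters. The sets overlapped, from 36.3% to 59.0% with a peak and from 32.3% to 60.7% without. PCDHGC4, with 60.7% GC and 23 CpG dinucleotides, had no peak at its start in any list, and neither had PCDHGB6 (50.0% GC, 16 CpG) or PCDHGB4 (49.7% GC, 13 CpG).

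The lists held 82392 to 165535 peaks and covered 54361971 to 82298613 bp. Read counts are not among their columns, and the depth is unknown. The value for a gene was the number of base pairs covered by peaks. The lines were told apart at some marker genes. CDKN2A, known to be deleted in MDA-MB-231, was listed at 0 in all 9 MDA-MB-231 lists and covered 529 to 1807 bp in all 9 PC3 lists. ESRP1, an epithelial splicing factor, covered 754 to 1603 bp in MDA-MB-231 and 3544 to 4365 bp in PC3, and AXL, a receptor of mesenchymal cells, 8375 to 18073 bp against 3161 to 5313 bp. EPCAM, CDH1, KRT8, KRT18, VIM, ZEB1, MSN and CAV1 had peaks in all 18 lists, and at each of them the lines overlapped. The epithelial KRT8 covered 8442 to 13772 bp in MDA-MB-231 and 8146 to 10895 bp in PC3. The mesenchymal VIM covered 2651 to 3598 bp against 2191 to 2788 bp. Of the markers of other cell types, PTPRC reached 401 bp in 3 MDA-MB-231 lists and no PC3 list, and CD3E, PECAM1 and CDH5 had peaks in all 18. Their part in the results was not tested.

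No peak was listed over the alpha or beta cluster in any of the 18 lists. All 31 members, PCDHAC1 and PCDHAC2 included, stood at 0 bp in the gene body with 10 kb on each side and within 1 kb of the start. They lie in 1 stretch without peaks, chr5:140734649-141275401, which is 540.753 kb long, begins 51.491 kb before PCDHA1 and ends 26.036 kb after PCDHB15. The only protein-coding genes wholly inside it are these 31. Stretches of at least 250 kb without a peak in any list numbered 342 over the genome and held 1257 protein-coding genes, or 6.29%. Of these, 36 held at least 10 genes, and the one over alpha and beta was the 7th by number of genes. A peak-free stretch need not be closed chromatin. Among 18 housekeeping genes, looked up after the data had been seen, 16 had a peak in all 18 lists and 2 had none in any: B2M, and POLR2A, which lies in a peak-free stretch of 294.683 kb with 23 genes. Whether the alpha and beta clusters were inaccessible, fell outside what could be called, or are not held in the lists used here cannot be told apart, and no statement on these 31 genes is made beyond the values.

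**Figure D1:**
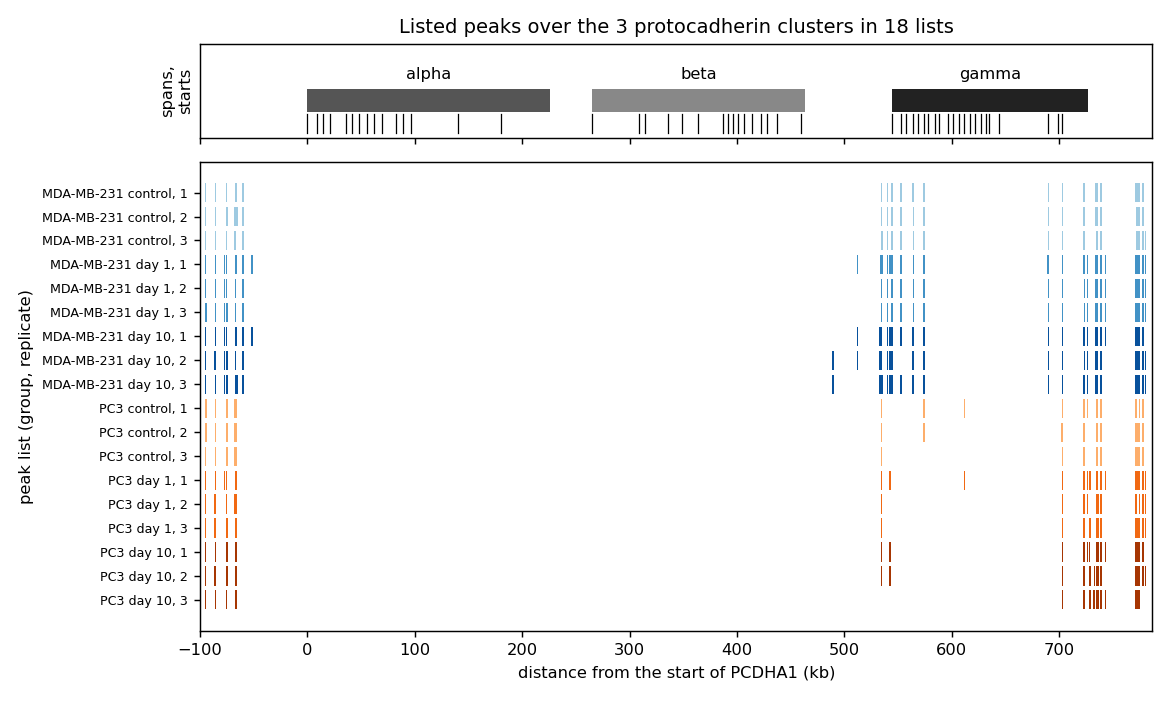
Listed peaks (bars, drawn at least 1.5 kb wide) in each of the 18 lists, against distance from the start of PCDHA1 in kb; the upper panel shows the 3 cluster spans and the 53 starts (ticks). No list has a bar over alpha or beta, and MDA-MB-231 lists have more bars over gamma than PC3 lists.

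The gamma cluster was covered in all 18 lists, and more widely in MDA-MB-231 than in PC3. In MDA-MB-231 the gamma span held 3649, 4090 and 4429 bp of peaks in control cells, 3972, 5134 and 4945 bp at day 1, and 3705, 4259 and 4441 bp at day 10. In PC3 it held 2585, 1895 and 1865 bp in control cells, 2516, 2346 and 2350 bp at day 1, and 2279, 1937 and 2594 bp at day 10. Every MDA-MB-231 list lay above every PC3 list, and within each line the 3 groups overlapped. The means ran from 4684 bp ± 624 (SD, n = 3) in MDA-MB-231 at day 1 through 4135 bp ± 383 at day 10 and 4056 bp ± 391 in control to 2404 bp ± 97.0 in PC3 at day 1, 2270 bp ± 329 at day 10 and 2115 bp ± 407 in control. The only step in that order wider than the spread of its neighbours was the one between the lines.

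**Figure D2:**
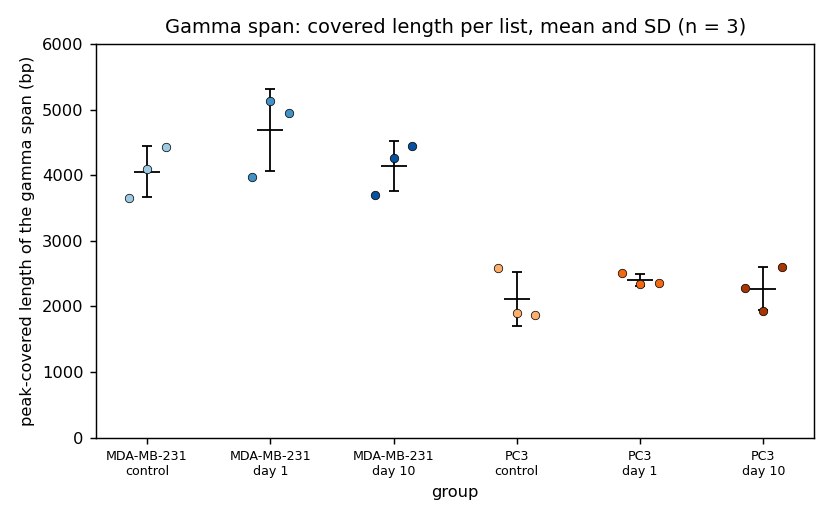
Peak-covered length of the gamma span (bp, y axis from 0) by group; points are the 3 lists of a group, the horizontal mark is the mean and bars are ± 1 SD. The 9 MDA-MB-231 points lie between 3649 and 5134 bp and the 9 PC3 points between 1865 and 2594 bp.

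For tests, lengths were divided by the total length covered in their list, brought back to bp, and fitted with limma as log2(length + 500 bp), a scale that understates changes of low values. In control cells the gamma span was lower in PC3 than in MDA-MB-231 by -0.85 (log2, SE 0.11, adjusted p = 3.88e-06, limma), beside a median of -0.20 over all features. Which way calls go over all features depends on the scaling. The share of body calls that were higher was 26.3% in PC3 survivors of day 10, but 70.4% in unscaled lengths and 57.6% under median-of-ratios scaling, and 32.1%, 35.2% and 50.8% between the control lines. The exact two-sided permutation test of the gamma span difference between controls gave p = 0.1, the smallest that 3 against 3 lists allow. The total covered length was not lower in the PC3 controls, at 62125433 to 66996981 bp against 54361971 to 70931594 bp. After cisplatin no change of the gamma span passed the test. MDA-MB-231 survivors differed from controls by 0.042 (day 1, adjusted p = 0.814, limma) and 0.036 (day 10, adjusted p = 0.844), and PC3 survivors by -0.071 (day 1, adjusted p = 0.695) and -0.11 (day 10, adjusted p = 0.424), with an SE of 0.11 each. From day 1 to day 10 the change was -0.0059 in MDA-MB-231 (adjusted p = 0.995) and -0.043 in PC3 (adjusted p = 0.863). The treatment effect did not pass the test of a difference between the lines either, at -0.11 (SE 0.16, adjusted p = 0.766, limma) for day 1 and -0.15 (SE 0.16, adjusted p = 0.548) for day 10.

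The line difference could be followed to single promoters. PCDHGB1 covered 610, 825 and 836 bp within 1 kb of its start in MDA-MB-231 controls, 814, 822 and 825 bp at day 1, and 524, 523 and 727 bp at day 10. It was listed at 0 in all 9 PC3 lists. PCDHGC3, a C-type gene, covered 873, 784 and 944 bp in MDA-MB-231 controls, 400, 826 and 828 bp at day 1, and 803, 798 and 797 bp at day 10. It too was listed at 0 in all PC3 lists. The lines did not overlap at either start.

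PCDHGA1 and PCDHGA2, the first variable exons of the cluster, carried narrow peaks in MDA-MB-231 lists and none in PC3 lists. PCDHGA1 covered 165, 223 and 216 bp in controls, 172, 228 and 230 bp at day 1 and 168, 175 and 233 bp at day 10, and was at 0 in every PC3 list. PCDHGA2 covered 219, 210 and 207 bp in controls, 195, 210 and 210 bp at day 1 and 188, 0 and 212 bp at day 10, and was at 0 in every PC3 list. These peaks were weak within their lists. By the authors' peak area, which ranks peaks within 1 list, the median percentile over MDA-MB-231 lists was 18.9 for PCDHGA1 and 12.2 for PCDHGA2, against 74.9 for PCDHGB1 and 65.8 for PCDHGC3.

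PCDHGB2 was seen in both lines, but in PC3 only before treatment. It covered 526, 598 and 583 bp in MDA-MB-231 controls, 512, 540 and 552 bp at day 1 and 477, 480 and 578 bp at day 10. In PC3 controls it covered 336, 360 and 0 bp, and it was at 0 in all 6 lists of surviving PC3 cells. All 3 PC3 controls lay below the 3 MDA-MB-231 controls. Its PC3 peaks were among the weakest of their lists, at a median area percentile of 5.17 against 55.1 in MDA-MB-231.

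PCDHGC5, the last C-type gene, was the 1 member with a peak at its start in all 18 lists. It covered 778, 828 and 873 bp in MDA-MB-231 controls, 1117, 1135 and 1025 bp at day 1 and 985, 1152 and 965 bp at day 10. In PC3 it covered 921, 803 and 1058 bp in controls, 1004, 1049 and 1158 bp at day 1 and 995, 1025 and 1369 bp at day 10. All 6 lists of surviving MDA-MB-231 cells lay above the 3 controls, while the PC3 groups overlapped. No change of PCDHGC5 passed the test (limma on log2(length + 200 bp)): after scaling it was 0.20 at day 1 (SE 0.13, adjusted p = 0.196, limma) and 0.28 at day 10 (SE 0.13, adjusted p = 0.198) in MDA-MB-231, and 0.10 between the control lines (SE 0.13, adjusted p = 0.576). Over 14 alternatives the adjusted p ran from 0.0168 to 0.435 for day 1 and from 0.0393 upward for day 10. Both changes passed with median-of-ratios scaling, at 0.44 (adjusted p = 0.0168) and 0.40 (adjusted p = 0.0393), and among peaks above the median area of their list.

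**Figure D3:**
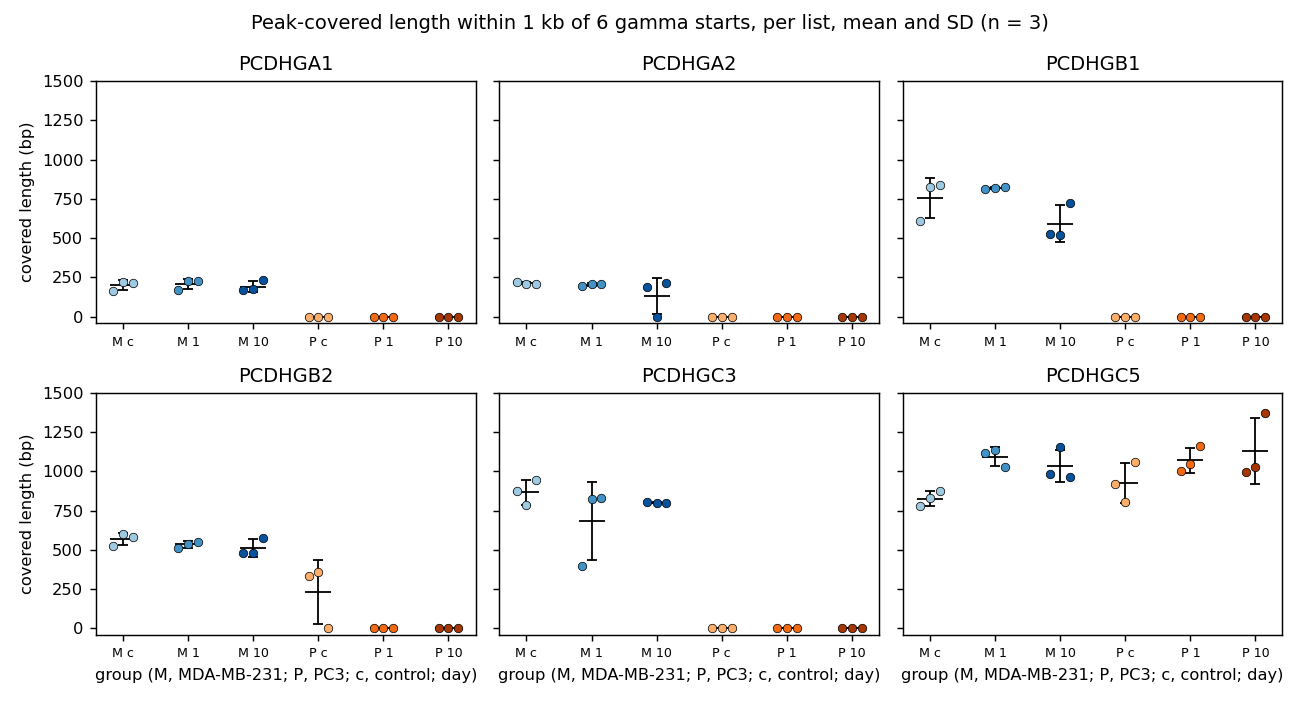
Peak-covered length (bp) within 1 kb of the start of 6 gamma genes, by group (M, MDA-MB-231; P, PC3; c, control; 1 and 10, days after drug removal); points are lists, marks are means and bars ± 1 SD. PCDHGA1, PCDHGA2, PCDHGB1 and PCDHGC3 are at 0 in all PC3 lists, and PCDHGC5 is covered in every list.

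Of the 22 gamma members, 6 had enough coverage at the start to enter the fit of 11093 genes, where at least 200 bp in 3 lists was required. All but PCDHGC5 reached it through MDA-MB-231 lists alone, so that their differences between the lines, and the count of limma calls among them, are a description and no support. Between the control lines 5 of them were lower in PC3 and none higher, where 30.5% of all genes tested were lower and 6.27% higher. A peak at the start in all 9 MDA-MB-231 lists and in no PC3 list was found for PCDHGA1, PCDHGB1 and PCDHGC3, and the share among 15764 other genes was 1.92%. The reverse pattern was found for no gamma member and for 1.53% of other genes. At 15 of the 22 gamma starts no list had a peak, PCDHGC4 included, while 73.6% of the other genes had one in at least 1 list and 57.2% in all 18. The 22nd member, PCDHGB5, had a peak only in replicate 1 of the PC3 controls (210 bp) and of PC3 at day 1 (199 bp). Between the PCDHGB2 and PCDHGC3 peaks lay 115.097 kb with 13 starts, and the PCDHGB5 peaks were the only ones listed there.

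**Figure D4:**
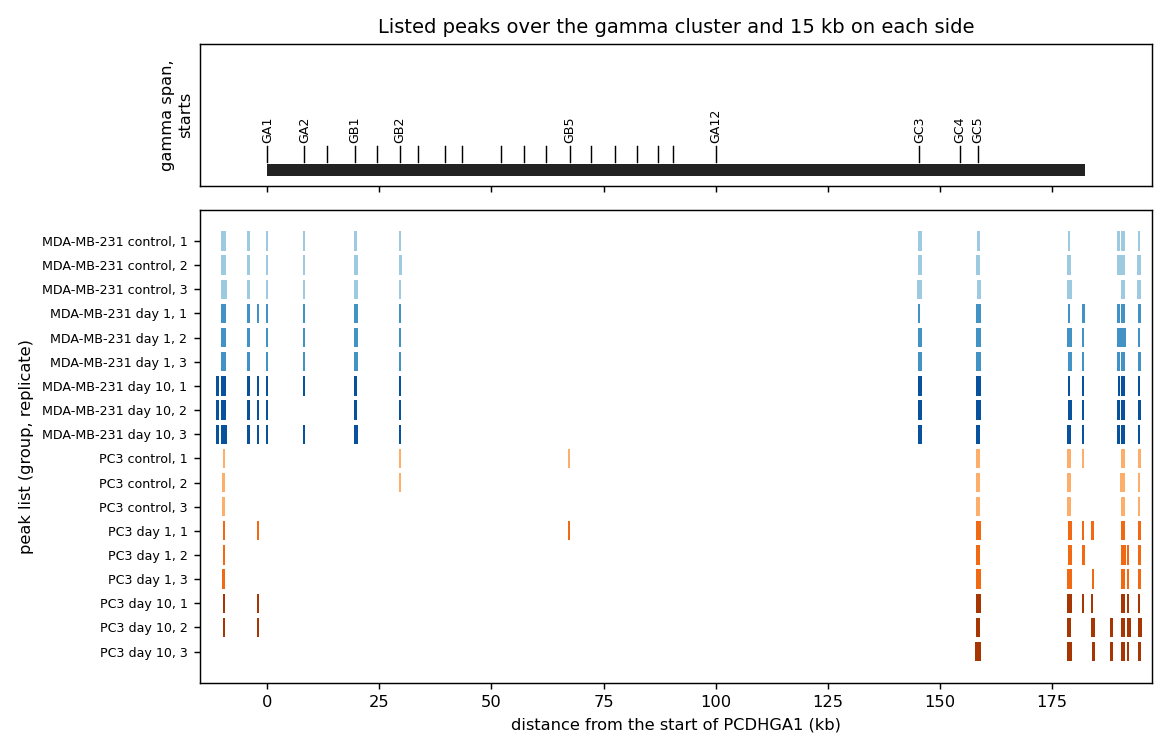
Listed peaks (bars, drawn at least 0.5 kb wide) over the gamma cluster and 15 kb on each side in each list, against distance from the start of PCDHGA1 in kb; ticks mark the 22 starts and selected names drop the prefix PCDH. MDA-MB-231 lists have peaks at both ends of the cluster, and PC3 lists mainly at the GC5 end.

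In surviving cells 3 calls were made at gamma starts, all of them lower. PCDHGC3 was lower in MDA-MB-231 survivors of day 1 than in controls (-0.44, SE 0.16, adjusted p = 0.0471, limma). This was 1 of 6 members tested, against 29.7% of all genes lower and 2.06% higher, with a median of -0.22 over all genes. The low value was that of replicate 1 (400 bp), and without it the change was -0.21 (adjusted p = 0.198). Leaving out any 1 of the 3 controls or day 1 replicate 3 also ended the call, with adjusted p-values from 0.0575 to 0.177. The call was also lost with the replicate number as a block (adjusted p = 0.0644). Over 14 alternatives the adjusted p ran from 0.0196 to 0.665. PCDHGB2 was lower in PC3 survivors of day 1 (adjusted p = 0.0183, limma), where 38.8% of all genes were lower and 2.34% higher, and of day 10 (adjusted p = 0.00511), where 72.6% were lower and 2.87% higher. Since 1 of the 3 controls was also at 0, the groups overlapped, and the day 1 call was lost without control replicate 1 (adjusted p = 0.0577) and without day 1 replicate 1 (adjusted p = 0.0588), in unscaled lengths (adjusted p = 0.119) and under median-of-ratios scaling (adjusted p = 0.0869). Both calls were lost with the 50000 peaks of largest area and with the peaks above the median area, where the gene was at 0 in all compared lists. Over 14 alternatives the adjusted p ran from 3.04e-07 to 1 for day 1 and from 1.29e-07 to 1 for day 10. By limma 0 starts were called in MDA-MB-231 survivors of day 10 against controls (6.08% of genes lower, 1.71% higher) or against day 1 (0.631% and 0.947%), with 1 higher and 1 lower in each at an unadjusted p under 0.05. In PC3 0 were called from day 1 to day 10 (8.12% lower, 0.487% higher), and 0 at an unadjusted p under 0.05. For the difference between the lines in the change, 0 members passed for day 1 (0.766% of genes lower, 0.883% higher; 0 at an unadjusted p under 0.05) and 0 for day 10 (12.8% and 1.69%; 1 higher and 1 lower). PCDHGB2 had the lowest adjusted p there, at 0.113 (limma), and it passed for both days without PC3 control replicate 3, the control at 0.

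Measured over whole genes with 10 kb on each side, the 22 gamma members had coverage in every list, and the 31 alpha and beta members were dropped by the minimum of 500 bp in 3 lists. All gamma genes share their last exons and their end, so their windows are nested and gave only 10 different sets of values. In control cells 21 of the 22 were lower in PC3 than in MDA-MB-231, where 44.3% of all 16813 features were lower and 21% higher. With median-of-ratios scaling 7 were lower and none higher, and with the 50000 peaks of largest area in each list also 7. The difference was largest at the first members and smallest at the last, with a span of similar values between them. It was -0.89 for PCDHGA1 (SE 0.082, adjusted p = 4.81e-08, limma), -0.76 for PCDHGA2, -0.71 for PCDHGA3, -0.35 for the 6 members from PCDHGA6 to PCDHGA9, -0.37 for PCDHGC3 and PCDHGC4, and -0.027 for PCDHGC5 (SE 0.099, adjusted p = 0.825). The PCDHGC4 window takes in the peak at the PCDHGC3 start, so its value repeats that peak. With the gene bodies alone neither gene was called, at -0.25 for PCDHGC3 (adjusted p = 0.125, limma) and 0.096 for PCDHGC4 (adjusted p = 0.539). The PCDHGC5 window held 2527, 2907 and 2808 bp in MDA-MB-231 controls and 2983, 2542 and 2772 bp in PC3 controls, which overlapped.

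In PC3 survivors of day 10, 20 of the 22 windows were higher than in controls (22 under either other scaling), against 11.8% of all features higher and 33.1% lower. The median over the 22 was 0.33, and -0.16 over all features. The PCDHGC5 window went from 2983, 2542 and 2772 bp in controls to 3825, 4471 and 4822 bp, without overlap (0.36, SE 0.099, adjusted p = 0.00847, limma). PCDHGC3, PCDHGC4, PCDHGA12 and 4 other members with the same values gave 0.36 with an adjusted p of 0.00942. PCDHGA1 gave 0.14 (adjusted p = 0.161) and was not called. With the gene bodies alone, or with the 50000 peaks of largest area, 0 of the 22 were called, and the body of PCDHGC5 alone gave 0.10 (SE 0.14, adjusted p = 0.580). Without PC3 control replicate 2 the count was 8, and without day 10 replicate 3 it was 9.

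Most of the added length lay past the end of the cluster. The mean of the PCDHGC5 window went from 2766 to 4373 bp in PC3, and that of the 10 kb after the gamma span from 953 to 2103 bp. In the 10 kb after the gamma span PC3 lists held 944, 1007 and 907 bp in controls, 1337, 1715 and 1780 bp at day 1 and 1546, 2534 and 2228 bp at day 10. MDA-MB-231 lists held 1106, 1284 and 993 bp in controls, 1201, 1450 and 1161 bp at day 1 and 1140, 1143 and 1212 bp at day 10. All 6 lists of surviving PC3 cells exceeded the 3 controls, while the MDA-MB-231 groups overlapped. This flank was singled out after the values had been seen and has no test of its own. A pair of regions absent from all PC3 controls and from all 9 MDA-MB-231 lists accounted for most of it. One, chr5:141514377-141515117, covered 398, 0 and 587 bp at day 1 and 305, 741 and 691 bp at day 10. The other, chr5:141522290-141523162, which crosses the edge of the windows, covered 0, 518 and 217 bp at day 1 and 334, 823 and 401 bp at day 10. Both lie at or in the end of DIAPH1 (chr5:141515021-141619000), the next gene, an actin-nucleating formin, whose own window gave 0.14 (SE 0.089, adjusted p = 0.226, limma) in PC3 at day 10. These regions and DIAPH1 were singled out after their values had been seen, and which gene they belong to was not tested.

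**Figure D5:**
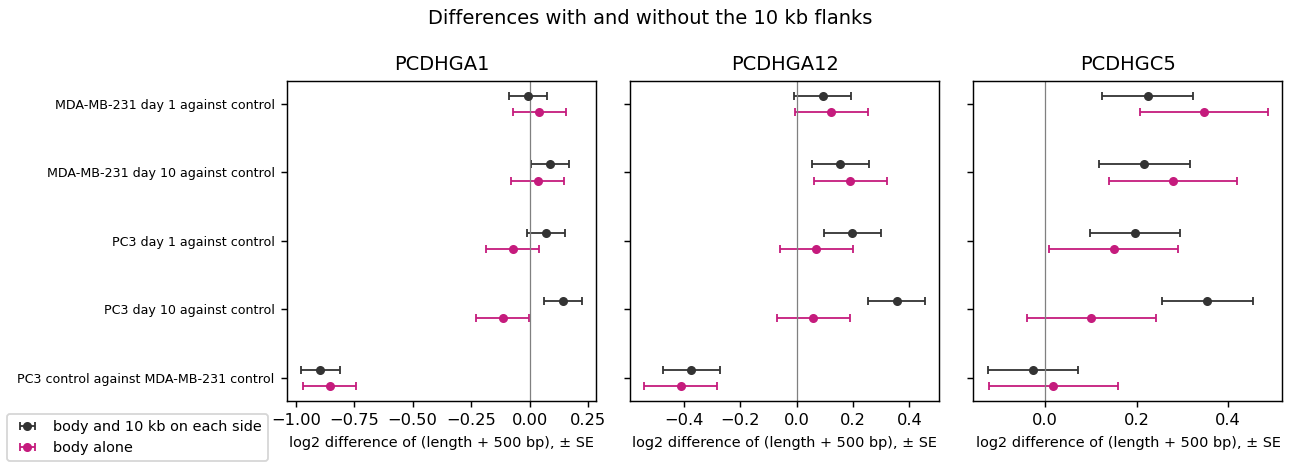
Log2 differences of (scaled covered length + 500 bp) with bars of ± 1 SE for PCDHGA1, PCDHGA12 and PCDHGC5 in 5 comparisons, with 10 kb on each side (dark) and for the gene body alone (magenta). At day 10 in PC3 the PCDHGC5 difference is 0.36 with the flanks and 0.10 without them.

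No other comparison of survivors gave a called window by limma. Of 22, 0 were called in MDA-MB-231 survivors of day 1 (10.9% of all features higher, 15.5% lower) and of day 10 (11% and 16.7%), and 0 in PC3 survivors of day 1 (6.03% and 7.24%). From day 1 to day 10 MDA-MB-231 had 0 (2.14% and 3.24%), as had PC3 (2.18% and 5.47%). At an unadjusted p under 0.05 only PCDHGC5 was higher in MDA-MB-231, at 0.22 for day 1 (SE 0.099, adjusted p = 0.103, limma) and 0.22 for day 10 (SE 0.099, adjusted p = 0.112), and 0 windows elsewhere. With the replicate number as a block the day 1 change passed (adjusted p = 0.0493), and in PC3 21 windows were higher on day 1 without scaling and 8 with median-of-ratios scaling. No window passed the test of a difference between the lines, at day 1 (1.86% of all features higher, 3.44% lower) or at day 10 (5.82% and 10.6%), and none had an unadjusted p under 0.05.

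Single regions were also compared by presence and absence. The peaks of all lists merged into 232138 regions, 9 of them in the gamma span and none in alpha or beta. Percentages here are of the regions present in the groups compared, which numbered 134052 to 184667, and not of all 232138. In the gamma span these were 9 between the control lines, 8 within MDA-MB-231, and 5 or, between the survivor groups, 4 within PC3. In MDA-MB-231 controls 4 gamma regions were present in 3 of 3 lists and in none of the PC3 controls, those at PCDHGA1, PCDHGA2, PCDHGB1 and PCDHGC3, where 9.7% of the regions compared were lost and 20.1% gained. MDA-MB-231 survivors gained 1 region on day 1 and the same 1 on day 10, against 8.77% and 11.2% of the regions compared, and lost 0 (0.755% and 1.0%). PC3 survivors gained 0 on day 1 (4.92%) and 0 on day 10 (11.0%) and lost 0 (0.465% and 1.38%). Between the survivor groups of a line there was no gain or loss of gamma regions, where MDA-MB-231 gained 2.38% and lost 2.52% of the regions compared and PC3 gained 2.67% and lost 1.1%. These counts have no test.

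The gained region, chr5:141512283-141512780, lies at the shared end of all gamma genes. It was absent from the 3 MDA-MB-231 controls and covered 345, 447 and 459 bp at day 1 and 215, 350 and 238 bp at day 10. In PC3 it covered 216, 0 and 0 bp in controls, 345, 390 and 0 bp at day 1 and 245, 0 and 0 bp at day 10, so there the groups overlapped. Its median area percentile was 13.6 in MDA-MB-231, and in the 50000 peaks of largest area of each list it was not counted as gained at either time. The neighbouring region chr5:141508864-141510088, within the shared part of the gamma genes, was present in all 18 lists, at 643, 795 and 942 bp in MDA-MB-231 controls and 902, 732 and 807 bp in PC3 controls. Its median area percentile was 80.5 in MDA-MB-231, against 84.2 at PCDHGC5.

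Before the first gamma gene, MDA-MB-231 lists also had more peaks than PC3 lists. The 10 kb before PCDHGA1 held 1476, 1641 and 1639 bp in MDA-MB-231 controls, 1700, 1477 and 1497 bp at day 1 and 1884, 1795 and 1904 bp at day 10, and all 3 lists of day 10 lay above the controls and the day 1 lists. In PC3 it held 571, 442 and 419 bp in controls, 538, 619 and 434 bp at day 1 and 487, 483 and 0 bp at day 10. The region chr5:141328229-141328613 was absent from MDA-MB-231 controls and covered 308, 0 and 0 bp at day 1 and 383, 325 and 269 bp at day 10. In PC3 it was present in 0, 1 and 2 of 3 lists. The region chr5:141326094-141326701 was present in all 9 MDA-MB-231 lists and in no PC3 list. A stronger region, chr5:141320203-141321536, crosses an end of TAF7 (chr5:141318490-141320784) and lies partly outside the 10 kb. It covered 1182, 1170 and 1324 bp in MDA-MB-231 controls. In PC3 controls it covered 571, 442 and 419 bp, all that was listed there in the 10 kb. Its median area percentile was 85.6 in MDA-MB-231 and 31.2 in PC3. The adjoining gene TAF7 encodes a subunit of the general transcription factor TFIID. Its window takes in all of these 10 kb and the peak at the PCDHGA1 start, so its value repeats those peaks. It was lower in PC3 controls (-1.38, SE 0.18, adjusted p = 3.43e-06, limma), which is no separate result. Windows of neighbouring genes overlap here too, and SLC35A4 and LOC131768270 had the same values in every list, so the same peaks can count several times. Among 31 tested genes within 500 kb of the clusters, 22 were lower in PC3 controls (71.0%, against 44.3% of all features) and none higher. With median-of-ratios scaling 8 were lower and 2 higher.

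Genes whose products act on clustered protocadherins were called in both lines, but their counts moved with the scaling. Of 24 genes for CTCF, cohesin and silencing factors, 12 were lower and 0 higher in PC3 survivors of day 10, where 33.1% of all features were lower and 11.8% higher, with a median of -0.34 against -0.16 over all features, and none had an unadjusted p under 0.05 in the higher direction. In unscaled lengths 4 were lower, and under median-of-ratios scaling 10. In MDA-MB-231 survivors 5 were lower and 2 higher on day 1 (1 and 2 without scaling), where 15.5% of all features were lower and 10.9% higher. On day 10, 6 were lower and 1 higher (3 and 0 without scaling), where 16.7% were lower and 11% higher. STAG2, a cohesin subunit, was lower in PC3 on day 10 under all 3 scalings (-0.74, SE 0.11, adjusted p = 8.78e-05, limma), and this change differed between the lines (-0.74, SE 0.15, adjusted p = 0.00383). CTCF was lower in MDA-MB-231 on day 10 under all 3 scalings (-0.51, SE 0.11, adjusted p = 0.00300, limma). DNMT3A, a DNA methyltransferase, was lower in PC3 on day 10 (-0.51, SE 0.088, adjusted p = 0.000307, limma), but not called without scaling (-0.28, adjusted p = 0.143). Between the control lines 9 were lower and 1 higher in PC3, a share of lower genes under the 44.3% of all features, against 6 lower and 7 higher with median-of-ratios scaling. The cohesin regulators PDS5A (-1.30), MAU2 (-0.70) and PDS5B (-1.23) were lower under all 3 scalings.

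The 11 non-clustered protocadherins, single genes elsewhere in the genome, included 3 that were covered in the controls of 1 line and listed at 0 in those of the other. PCDH8 covered 1205, 1368 and 1368 bp in MDA-MB-231 controls and was at 0 in all 9 PC3 lists. PCDH19 was at 0 in MDA-MB-231 controls and covered 1740, 1718 and 1506 bp in PC3 controls, and PCDH11X was at 0 and covered 1434, 886 and 1357 bp. In MDA-MB-231 survivors PCDH11X covered 357, 630 and 675 bp on day 1, without overlap with controls (adjusted p = 0.00888, limma), and 287, 0 and 563 bp on day 10. PCDH19 covered 198, 0 and 758 bp on day 1 and 383, 0 and 907 bp on day 10, which overlapped controls (day 10 adjusted p = 0.0488, limma, and 0.0871 without scaling). In PC3 survivors 0 of the 11 were called, where 6.03% of all features were higher and 7.24% lower on day 1, and 11.8% and 33.1% on day 10. At an unadjusted p under 0.05 (limma) there were 0 on day 1 and 1 lower on day 10. This moved with the scaling. Without scaling 1 was called higher on each day, where 14.5% and 16.8% of all features were higher. With median-of-ratios scaling 0 were called on day 1 and 2 were higher on day 10, where 20.3% of all features were higher. Of 10 genes for partners of the shared tails, 9 were tested, and CTNNB1, which encodes beta-catenin, was higher in PC3 on day 10 (0.69, SE 0.16, adjusted p = 0.00259, limma) and changed differently in the lines (1.19, SE 0.23, adjusted p = 0.00194), under all 3 scalings. RET, a receptor kinase, was higher on day 10 under all 3 scalings in PC3 (0.58, SE 0.14, adjusted p = 0.00339, limma) and in MDA-MB-231 (0.52, SE 0.14, adjusted p = 0.0110). In all, 3 partners were higher and 5 lower in PC3 on day 10, against 3 and 0 without scaling, where 11.8% of all features were higher and 33.1% lower. In MDA-MB-231 on day 10, 2 were higher and 4 lower, against 1 and 0 without scaling, where 11% were higher and 16.7% lower.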

How the data were processed

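ATAC-seq libraries came from 54 samples in 6 groups, each biological replicate split into 3 experimental replicates, per the labels. The authors deposited 18 narrowPeak lists, 1 per biological replicate. The sources used here do not say how experimental replicates were joined. Tools named in the submitters' processing notes are Genrich 0.6.2, SAMtools 1.6, Picard, Bowtie2 2.3.5.1, R 4.4.1 and FastQC 0.12.1, with GRCh38 as build. The deposited column 7 is a score, read as peak area, and was served to order the peaks of 1 list.

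Covered base pairs were computed in Python 3.11.15 (pandas 2.3.3, SciPy 1.17.1, matplotlib 3.10.9) for each gene with 10 kb on each side, each cluster span and 1 kb around each start, and scaled to the mean total covered length. Features with at least 500 bp (start: 200 bp) in 3 lists were fitted as log2(length + 500 bp, start: 200 bp) with limma 3.58.1 in R 4.3.3, all groups in 1 fit, with eBayes trend, 12 residual degrees of freedom, and Benjamini-Hochberg adjusted p-values called at 0.05 over 16813 (start: 11093) features. The fit was tested on simulated data. Single span values were compared by exact permutation.

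Named are the spans, the C-type members, up to 3 called members per comparison, cluster and window by lowest p, members with a start peak in all lists, in all lists of 1 line or of 1 group, and up to 3 called genes per other list. Housekeeping genes, flank regions and the CGCTGT motif were chosen after values were seen. Members and lists were chosen with earlier results of these data known. Lists of the same replicate number deviated alike for MDA-MB-231 day 1 and control (correlations of deviations 0.389, 0.235 and 0.193), MDA-MB-231 day 10 and day 1 (0.419, 0.310 and 0.197) and PC3 day 10 and day 1 (0.345, 0.132 and 0.216). Correlations were 0.330, 0.133 and 0.0564 for MDA-MB-231 day 10 and control. For PC3 they were 0.0289, 0.253 and 0.0296 (day 10 and control) and 0.0998, -0.0443 and 0.00535 (day 1 and control). A pairing by replicate number is read from these correlations alone and is not stated in the labels. Alternatives were other scalings, peak subsets, windows, pseudocounts and filters, a replicate block and leaving out each list. Results for some marker and list genes are not reported here.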

Additional observations from a re-analysis of the deposited data

How the results depend on the processing

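The lower gamma span in PC3 controls passed the test under all 14 alternatives, with adjusted p-values from 4.80e-08 to 0.000357. Other scalings moved the median over all features by up to 0.24 in body windows and 0.36 in start windows. The share of calls that were higher, in the order total length, no scaling and median-of-ratios, was for body windows 41.2%, 85.6% and 70.1% (MDA-MB-231 day 1), 39.7%, 55% and 69.3% (its day 10), 39.7%, 15.6% and 41.8% (its day 10 against day 1), 45.4%, 98.7% and 78.6% (PC3 day 1), 28.5%, 26.1% and 56.1% (PC3 day 10 against day 1) and 35.4%, 70.6% and 49.8% (lines, day 10 change). For start windows it was 6.51%, 24.9% and 48.7%, then 22%, 28.2% and 52.9%, 60%, 31.6% and 37.9%, 5.7%, 81.3% and 83.9%, 5.65%, 4.28% and 23.3%, and 11.7%, 34.2% and 38.8% in the same order, with 3.8%, 12% and 47.2% for PC3 day 10 and 17.1%, 19.7% and 44.4% between control lines. Numbers of members called changed as follows. Without scaling, 1 body window was higher in MDA-MB-231 on day 1 and 21 in PC3 on day 1, and 0 starts were lower on day 1 in each line. With median-of-ratios, higher body windows were 1 on each day in MDA-MB-231 lists and, for PC3, 8 on day 1, 7 were lower between control lines, 1 start was higher for each MDA-MB-231 day and 1 for PC3 day 10, and 0 starts were lower on day 1. With the 50000 peaks of largest area, or those above the median area, 0 body windows were higher in PC3 on day 10, 7 or 6 were lower between control lines, 3 starts were lower between them, 0 starts were lower in survivors, and 0 regions were gained in MDA-MB-231. Above the median area 1 start was higher on each day in MDA-MB-231 and 1 between control lines. Gene bodies alone gave 0 in PC3 on day 10, a start window of 500 bp on each side gave 0 lower starts on day 1 in MDA-MB-231, and a larger overlap required for presence gave 0 regions gained there on day 10. With the replicate block, which rests on a pairing of the replicate numbers, 1 body window was higher on day 1 in MDA-MB-231 and 0 starts were lower. The block changed no other call.

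Leaving out 1 list gave 8 to 22 body windows higher in PC3 on day 10, 0 to 1 starts lower on day 1 in each line, 0 to 1 starts lower in the difference between lines for each day, and 0 to 1 regions lost in PC3 on each day. The 1 in the last 4 counts came without PC3 control replicate 3, the control with no PCDHGB2 peak. Changes of the gamma span in survivors changed sign between alternatives. The lowest adjusted p over the 14 alternatives was 0.0672 (limma), for PC3 on day 10 against control. Leaving out 1 list gave -0.033 to 0.12 and -0.018 to 0.068 in MDA-MB-231 (days 1 and 10), -0.079 to 0.069 between its days, -0.14 to 0.038 in PC3 on day 1 and -0.11 to 0.069 between its days. With 10 kb on each side the span gave -0.0070 in MDA-MB-231 on day 1, 0.095 between its days, 0.070 and 0.14 in PC3 and 0.073 between its days. PC3 gave 0.16 and 0.087 without scaling and 0.0097, 0.046 and, between its days, 0.037 with median-of-ratios. It gave 0.14, 0.32 and 0.18 with 50000 peaks and 0.0014, 0.11 and 0.11 above the median area, while MDA-MB-231 gave 0.0011 and 0.0050 between its days. The difference between lines was 0.065 (day 1) and 0.25 (day 10) with 50000 peaks, and for day 10 0.062 without scaling and 0.0037 above the median area. The PCDHGC5 window between control lines gave 0.0077 without scaling, 0.18 with median-of-ratios, 0.19 with 50000 peaks, 0.34 above the median area, 0.017 for the body alone and -0.083 to 0.035 without 1 list. None of these values of changed sign passed the test, and the cause was not tested. The alpha and beta spans are at 0 and gave no value. Unknown depth limits every comparison of listed with not listed.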

Other observations

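In all, 3 weak regions seen in MDA-MB-231 and in no PC3 list lie between the beta and gamma clusters, outside every member window. chr5:141319295-141319503, inside TAF7 (chr5:141318490-141320784), was listed in the 3 day 10 lists (188, 197 and 209 bp) and in none of the others. chr5:141275402-141275669, where the stretch without peaks ends, was listed in 2 of the 3 day 10 lists (250 and 251 bp) and in no other. The third, chr5:141297996-141298351, was listed in 1 day 1 list (181 bp) and 2 day 10 lists (212 and 356 bp).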
